A study of Rattus norvegicus with 6 samples.

Results

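Genes of the synaptic vesicle and exocytosis machinery were followed through 6 RNA-seq libraries of rat cells. They were taken from the count table by symbol: synaptotagmins, the Snap, syntaxin and Vamp families, syntaxin-binding proteins, synapsins, Sv2 proteins, Rims and Unc13 proteins, complexins, and Syp, Sypl1, Bsn, Pclo, Nsf, Napa and Napb. The rule found 74 of the 16876 gene symbols, and 67 of the 74 had enough counts for the test. By textbook knowledge 37 of the 74 were set down as neuronal forms and 25 as ubiquitous forms, and the other 12 are of mixed or tissue-restricted expression. The neuronal forms numbered 33 of the tested genes, the ubiquitous forms 25 and the others 9.

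The libraries are labelled as primary cultured rat microglia, which the labels describe as shaken off confluent co-cultures grown for days in serum-containing medium. The cells were kept for 24 h with IR-813, a near-infrared dye (3 libraries), or with PSNPs, polystyrene nanoplastics (3 libraries). The columns of the IR-813 libraries are headed con in the deposited tables, and no dose, strain, sex, age or untreated sample is given in the sources used here. Nothing says that the replicates are separate cultures or animals, so p-values measure the spread between these libraries, which may be technical. The comparison asks which transcripts differ between the treatments, in a study of impaired memory and neuroinflammation. Higher or lower below always means with PSNPs relative to IR-813, and which of the treatments moved a gene cannot be told.

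Neurotransmitter release and many other forms of secretion use the same kind of membrane fusion engine. A SNARE on the vesicle (a VAMP) pairs with SNAREs on the target membrane (a syntaxin and a SNAP protein), an SM protein clasps the complex, synaptotagmins and complexins tie fusion to calcium, and NSF with its SNAP adaptors takes the spent complex apart. Neurons use dedicated versions of nearly every part, whereas all cells, microglia and astrocytes included, carry ubiquitous versions for traffic to the cell surface, endosomes, lysosomes and the Golgi. Several of the syntaxins and VAMPs counted here (Stx5, Stx6, Stx7, Stx8, Stx16, Stx18, Vamp4) are known for traffic inside the cell and not for vesicle release at the synapse.

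The libraries held between 19166605 and 22553507 counts. Levels are given as CPM, the usual depth-scaled counts, on library sizes scaled by TMM. The libraries were not alike within the PSNPs group: log CPM correlated at 0.995 across genes between PSNPs replicates 1 and 2 and at 0.974 and 0.971 between these and replicate 3. Values without PSNPs replicate 3 are therefore also given where leaving it out changed the call of a gene described with its levels. Markers of other cell types were present beside those of microglia. In every library the sums for astrocytes and for the oligodendrocyte lineage stood above that for microglia. The summed level of 11 microglia markers was 1006 to 1353 CPM with IR-813 and 651 to 844 CPM with PSNPs, that of 11 astrocyte markers 6957 to 8862 and 8399 to 9300 CPM, and that of 13 oligodendrocyte-lineage markers 7307 to 8481 and 4511 to 5217 CPM.

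Neuronal forms of the machinery were called lower more often than all tested genes (42.4% against 20.1%). Ubiquitous forms were called higher about as often as all tested genes (20% against 20.9%) and lower less often (4%). Most genes of either kind did not pass. Of the 33 tested neuronal forms, 14 fell, Sv2b rose and 18 did not pass, with a median log2 fold change of −0.88. Of the 25 ubiquitous forms, 5 rose, Stx7 fell and 19 did not pass, with a median of 0.22. Of the 9 tested forms of mixed or tissue-restricted expression, 5 fell (55.6%) and 1 rose (11.1%), with a median of −0.48. A share of falls above that of all tested genes was thus not particular to the neuronal forms. Across all 67 tested members 20 fell and 7 rose (edgeR's quasi-likelihood fit, Benjamini-Hochberg adjusted p under 0.05). Among all 11679 tested genes 20.1% were lower and 20.9% were higher, 41.0% in all, and the median log2 fold change was −0.01. These were 2351 lower and 2439 higher genes, and scaling by library size alone gave 2852 and 1943. The share of neuronal forms called lower was 42.4% and that of ubiquitous forms 4%, and for calls of higher the shares were 3.03% and 20%. A fall of at least 2-fold that passed the test was found for 11 neuronal forms and 0 ubiquitous forms, against 8.81% of all tested genes.

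Without PSNPs replicate 3, 19 of the 33 neuronal forms were lower and 2 higher, with a median of −0.57 in place of −0.88 (of all genes tested 29.5% were then lower and 30.4% higher, 59.9% in all). In that fit 12 of the 25 ubiquitous forms were higher and 3 lower. The count of ubiquitous forms that rose was small and moved with the libraries: leaving out replicate 1 or 2 of the IR-813 group gave 2, and leaving out IR-813 replicate 3 or PSNPs replicate 1 gave 3. The 7 members that rose became 3, 3, 4, 4 and 17 when IR-813 replicate 1, 2 or 3, PSNPs replicate 1 or PSNPs replicate 3 was left out. Of the 20 members that fell, 15 did so whichever of the 6 libraries was left out, and the other 5 were Syn1 and Syt17 (called in 1 of the 6 fits), Syt9 and Vamp2 (2) and Syt7 (4). Of the 7 that rose, Sv2b, Vamp3 and Vamp5 did so whichever library was left out.

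**Figure D1:**
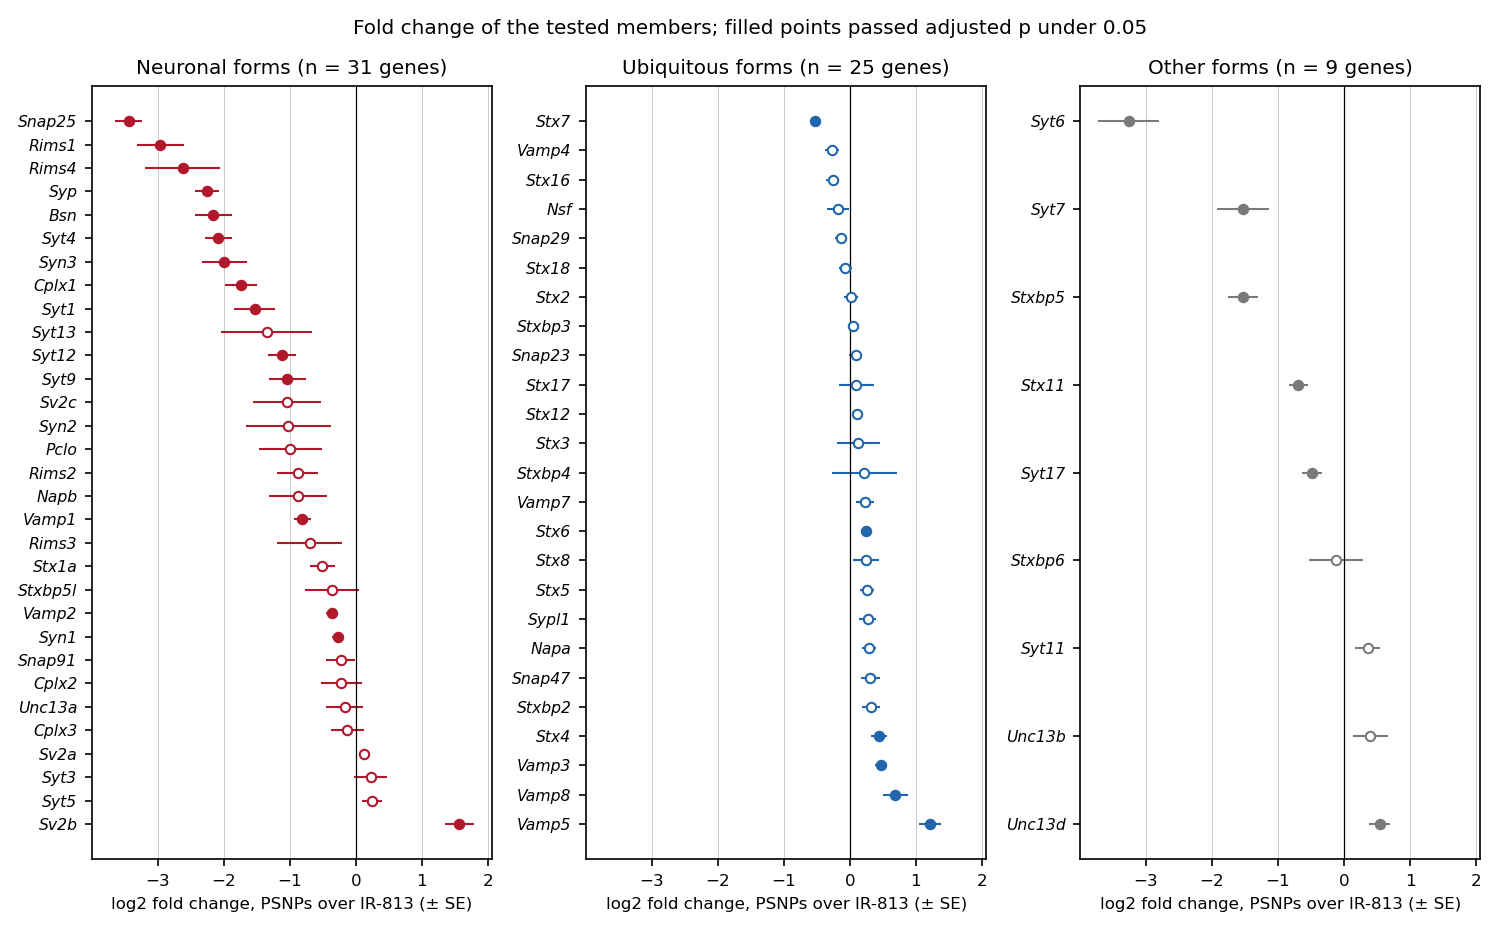
Log2 fold change (horizontal axis, PSNPs over IR-813, ± SE) of 65 of the tested members, as 31 neuronal, 25 ubiquitous and 9 other forms; filled points passed an adjusted p under 0.05. Neuronal forms reach from −3.44 for Snap25 to 1.57 for Sv2b, while ubiquitous forms lie between −0.53 and 1.21.

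Most markers of neurons that are not members also fell. The summed level of 18 neuron markers was 1013 to 1041 CPM with IR-813 and 504 to 568 CPM with PSNPs. Of the 18, 12 fell (66.7%) while 1 rose, and among all tested genes 20.1% were lower and 20.9% higher. None of the 18 was at 0 in every library, and Gap43 took 27.6% of the sum. The marker that rose was Nefh, a heavy neurofilament gene, from 0.121 ± 0.0497 to 0.945 ± 0.267 CPM (SD, n = 3 each). Gad1, which makes GABA, fell from 35.6 ± 4.66 to 1.96 ± 0.288 CPM (SD, n = 3 each). The summed level of the neuronal members was 991, 962 and 827 CPM in the IR-813 libraries and 585, 627 and 495 CPM in the PSNPs libraries. All 3 PSNPs libraries lay below all 3 IR-813 libraries in both sums, as they did for 31.4% of all tested genes taken singly. On either side, 61.4% of all tested genes had groups that did not overlap. Relative to the neuron markers of the same library, the log2 ratio of the neuronal members was −0.16 ± 0.15 with IR-813 and 0.07 ± 0.23 with PSNPs (SD, n = 3 each), with overlapping groups. This overlap turned on Syt4: without that gene the ratio was −0.66, −0.68 and −0.76 with IR-813 and 0.03, −0.01 and −0.38 with PSNPs, and the groups did not overlap. That of all ubiquitous members was 0.41 ± 0.01 and 1.48 ± 0.08, without overlap. In bulk samples fewer cells of a type and less RNA per cell cannot be told apart. Oligodendrocyte-lineage markers (12 of 13 lower, 1 higher) and microglia markers (7 of 11 lower, 0 higher) also moved with the groups, and astrocyte markers moved the other way (6 of 11 higher, 1 lower, median 0.42). The part of any cell type in the change of the members was not tested.

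Among the neuronal target-membrane SNAREs Snap25 fell, while Stx1a did not pass over all 6 libraries. Snap25, the neuronal SNAP protein that is cut by several botulinum toxins, stood at 5.37, 4.28 and 5.27 CPM in the IR-813 libraries and at 0.41, 0.48 and 0.47 CPM in the PSNPs libraries, from 92 to 120 and 9 counts a library. The 3 PSNPs libraries were close to each other and far below all 3 IR-813 libraries. Its log2 fold change was −3.44 ± 0.20 (estimate ± SE, edgeR adjusted p = 0.000101), the largest fall of any tested member. Snap23, its ubiquitous relative used in general secretion, was at 51.5, 53.7 and 54.5 CPM with IR-813 and at 60.5, 58.6 and 50.6 CPM with PSNPs. These groups overlapped (0.09 ± 0.10, edgeR adjusted p = 0.492), and without PSNPs replicate 3 the value was 0.16 with an adjusted p of 0.0281.

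The neuronal syntaxin gene Stx1a, whose product is the syntaxin of the synaptic plasma membrane, did not pass over all 6 libraries. It stood at 6.13, 7.31 and 6.57 CPM with IR-813 and 3.95, 4.19 and 5.89 CPM with PSNPs, without overlap (−0.51 ± 0.19, edgeR adjusted p = 0.0656). PSNPs replicate 3 was the highest of its group, and without it Stx1a fell (−0.71, edgeR adjusted p = 0.00362).

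Of the 14 ubiquitous target SNAREs, 2 rose (14.3%, against 20.9% of all tested genes), 1 fell (7.14%, against 20.1%) and 11 did not pass. Stx4, the plasma-membrane syntaxin of general secretion, rose from 59.0, 55.6 and 55.9 CPM with IR-813 to 69.7, 71.6 and 89.6 CPM with PSNPs, without overlap (0.44 ± 0.12, edgeR adjusted p = 0.0226). Stx6, a syntaxin of the trans-Golgi network, rose from 103, 105 and 103 to 127, 118 and 121 CPM (0.24 ± 0.07). The late endosomal syntaxin gene Stx7 fell from 114, 124 and 127 to 86.2, 82.1 and 84.1 CPM (−0.53 ± 0.08, edgeR adjusted p = 0.00242). The call of Stx4 was lost without any of the IR-813 replicates (adjusted p = 0.0661 to 0.0929), and that of Stx6 in 5 of the 6 fits that left out a library, with adjusted p from 0.0536 to 0.129, and with scaling by library size alone (0.105). Stx11, a syntaxin of blood and immune cells, fell from 10.2, 9.96 and 10.8 CPM to 7.35, 5.62 and 6.26 CPM (−0.69 ± 0.14), and its groups did not overlap.

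The vesicle SNAREs split by form only in part. Both neuronal VAMPs fell: Vamp1 from 11.8, 11.9 and 14.1 CPM with IR-813 to 6.89, 7.22 and 7.41 CPM with PSNPs (−0.81 ± 0.13, edgeR adjusted p = 0.00288), and Vamp2, synaptobrevin of the synaptic vesicle, from 136, 143 and 131 to 96.9, 107 and 116 CPM (−0.36 ± 0.09). Vamp2 lost its call without IR-813 replicate 1 or 2 or PSNPs replicate 1 or 2, with adjusted p of 0.0547 to 0.0953 by edgeR's test. Of the 5 ubiquitous VAMPs, 3 rose (60%, against 20.9% of all tested genes), while Vamp4 and Vamp7 did not pass. Vamp4 lay lower with PSNPs without overlap (−0.27 ± 0.10, edgeR adjusted p = 0.0642). Without PSNPs replicate 3 it passed as lower (−0.33, edgeR adjusted p = 0.00472). Vamp7 overlapped between the groups (0.23 ± 0.14) and passed as higher without PSNPs replicate 3 (0.34, edgeR adjusted p = 0.0168). Vamp3, cellubrevin of recycling endosomes, rose from 179, 185 and 195 to 248, 241 and 286 CPM (0.47 ± 0.09, edgeR adjusted p = 0.00718). Vamp5 rose from 2.42, 2.47 and 1.94 to 4.69, 5.52 and 5.58 CPM (1.21 ± 0.17, edgeR adjusted p = 0.00176), the largest rise among the ubiquitous forms. It is a VAMP known from muscle, though it was counted here as a ubiquitous form. Vamp8, the endosomal and granule VAMP, rose from 6.08, 6.33 and 7.35 to 10.7, 8.28 and 12.8 CPM (0.69 ± 0.19). The groups did not overlap for any VAMP that fell or rose, as was so for 61.4% of all tested genes. The call of Vamp8 was lost without IR-813 replicate 1 (edgeR adjusted p = 0.0941), IR-813 replicate 2 (0.0930) or PSNPs replicate 1 (0.0622), and its value was 0.24 once a length trend was taken out of each library (adjusted p = 0.202).

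Synaptotagmins, the calcium sensors, had 7 of 11 tested genes lower (63.6%, against 20.1% of all tested genes) and 0 higher. Syt1, the sensor of fast synchronous release, fell from 4.07, 3.91 and 3.14 CPM with IR-813 to 1.70, 1.43 and 0.68 CPM with PSNPs (−1.53 ± 0.31, edgeR adjusted p = 0.00775). Syt4, a synaptotagmin of dense-core vesicles that does not bind calcium in the usual way, had the most counts of the neuronal forms with IR-813. It fell from 351, 314 and 213 to 70.5, 79.4 and 57.7 CPM (−2.08 ± 0.21, edgeR adjusted p = 0.000536), so that its share of all counts of neuronal members went from 35.4, 32.6 and 25.8% to 12.04, 12.7 and 11.7%. IR-813 replicate 3 had the lowest Syt4 level of its group, still above every PSNPs library. Syt6 fell from 4.61, 3.45 and 3.19 to 0.18, 0.80 and 0.21 CPM (−3.26 ± 0.46), where 4 to 15 counts a library stood behind the PSNPs values. Also lower were Syt12, Syt9, Syt7 and Syt17, with log2 fold changes between −1.53 and −0.48. Of these, Syt9, Syt7 and Syt17 lost their calls in some of the fits that left out a library.

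Not every synaptotagmin followed. Syt5, at 17.04, 18.9 and 16.1 CPM with IR-813 and 17.7, 19.3 and 24.9 CPM with PSNPs, overlapped between the groups (0.25 ± 0.15). Syt11, a non-calcium-binding synaptotagmin that glia also express, was at 254, 253 and 291 CPM with IR-813 and at 394, 388 and 240 CPM with PSNPs. PSNPs replicates 1 and 2 were above and replicate 3 below all IR-813 libraries, so that the value of 0.36 ± 0.19 did not pass (edgeR adjusted p = 0.172), while without PSNPs replicate 3 it was 0.56 with an adjusted p of 0.000384. Syt2, Syt8, Syt10 and Syt15 had at most 13 counts in any library and were not tested.

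**Figure D2:**
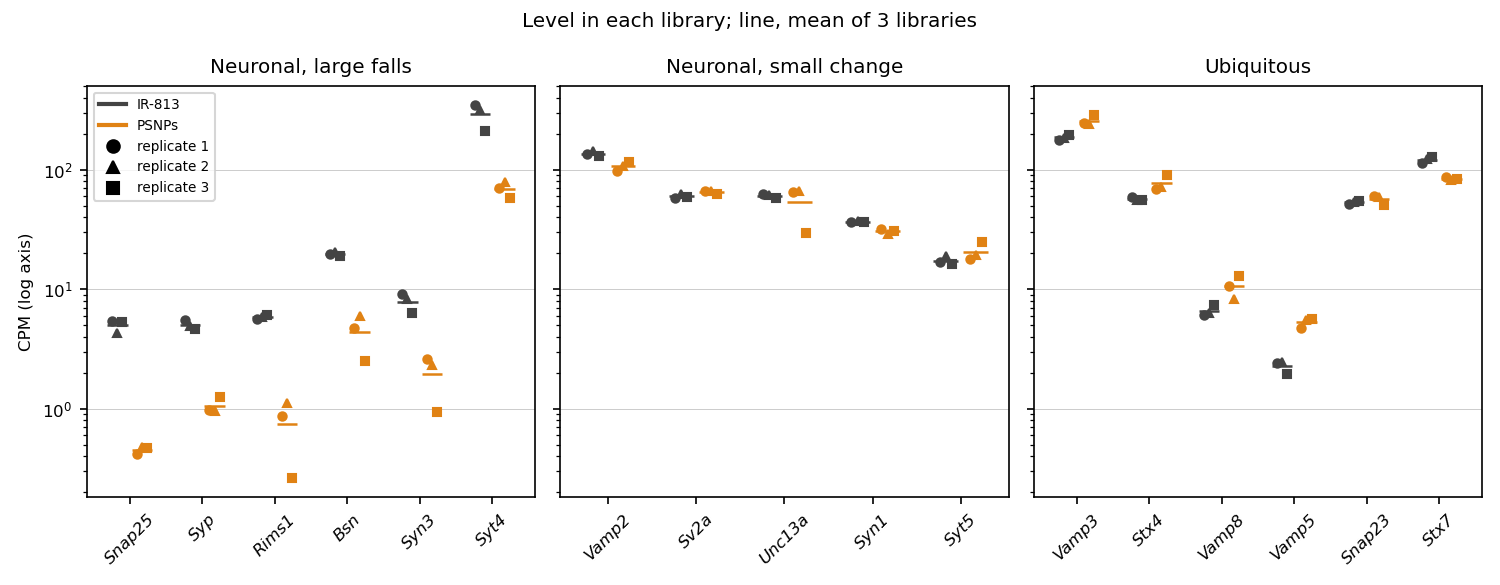
CPM (log axis) in each library for 17 members picked after their values were seen: 6 neuronal forms with large falls, 5 neuronal forms with small changes and 6 ubiquitous forms; symbols mark the replicates and lines the mean of 3 libraries. In the left panel all PSNPs points lie below all IR-813 points, in the middle panel Unc13a drops to 29.8 CPM in PSNPs replicate 3 alone, and on the right Vamp3, Stx4, Vamp8 and Vamp5 lie higher with PSNPs.

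Proteins of the vesicle membrane and those that coat it diverged. Syp, synaptophysin, a classic marker of synaptic vesicles, fell from 5.55, 4.94 and 4.62 CPM with IR-813 to 0.97, 0.96 and 1.25 CPM with PSNPs (−2.25 ± 0.18, edgeR adjusted p = 0.000237). Its ubiquitous relative Sypl1 was at 55.3, 52.2 and 51.8 CPM with IR-813 and at 71.2, 68.6 and 52.4 CPM with PSNPs (0.27 ± 0.13, edgeR adjusted p = 0.135, and 0.40 with 0.000605 without PSNPs replicate 3). Of the synapsins, which tether vesicles to the cytoskeleton, Syn3 fell from 9.04, 8.33 and 6.29 to 2.62, 2.33 and 0.94 CPM (−1.99 ± 0.34, edgeR adjusted p = 0.00427). Syn1, the main neuronal synapsin gene, fell by only 0.27 ± 0.09 on the log2 scale, from 36.5, 37.2 and 36.7 to 32.1, 28.9 and 30.6 CPM. It passed narrowly (edgeR adjusted p = 0.0436) and lost its call in 5 of the 6 fits that left out a library.

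The Sv2 transporters of the vesicle membrane went apart. Sv2b rose from 1.70, 1.54 and 1.94 to 4.73, 6.53 and 4.12 CPM (1.57 ± 0.22, edgeR adjusted p = 0.00207), from 33 to 42 counts with IR-813 and 79 to 123 with PSNPs, and was the only neuronal form that rose over all 6 libraries. Its relative Sv2a, named after its values were seen, was at 57.8, 62.4 and 59.7 CPM with IR-813 and 66.7, 66.7 and 63.2 CPM with PSNPs (0.13 ± 0.08, edgeR adjusted p = 0.232). Without PSNPs replicate 3 Sv2a passed as higher (0.16, edgeR adjusted p = 0.0363). Sv2c stood at 4.02 to 4.70 CPM with IR-813 and at 1.75, 3.93 and 0.63 CPM with PSNPs and did not pass (−1.04 ± 0.51, and −0.62 without PSNPs replicate 3).

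At the active zone, where vesicles dock and are primed, 3 of 7 tested neuronal forms fell (42.9%, against 20.1% of all tested genes). All 7 had negative values. Rims1, a scaffold that recruits calcium channels and Munc13, fell from 5.68, 5.87 and 6.10 CPM with IR-813 to 0.87, 1.11 and 0.26 CPM with PSNPs (−2.96 ± 0.36, edgeR adjusted p = 0.00114). Bsn, which encodes the giant scaffold bassoon, fell from 19.7, 20.5 and 18.8 to 4.69, 5.996 and 2.50 CPM (−2.16 ± 0.28, edgeR adjusted p = 0.00143). Rims4 fell from 0.49, 0.75 and 1.02 to 0.23, 0.05 and 0.05 CPM on 1 to 22 counts a library (−2.62 ± 0.57). Pclo, the gene of bassoon's relative piccolo, was at 6.17, 7.22 and 6.80 CPM with IR-813 and at 3.68, 5.47 and 0.99 CPM with PSNPs and did not pass (−0.99 ± 0.48, edgeR adjusted p = 0.138), but passed without PSNPs replicate 3 (−0.57, adjusted p = 0.0321).

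The priming factors of the Munc13 family did not share the fall of the scaffolds. Unc13a, Munc13-1 of most central synapses, was at 62.7, 61.5 and 58.5 CPM with IR-813 and at 65.5, 66.8 and 29.8 CPM with PSNPs. PSNPs replicates 1 and 2 lay above all IR-813 libraries and replicate 3 below, and the value of −0.17 ± 0.28 turned to 0.12 without that replicate and to 0.05 with a length trend removed (edgeR adjusted p = 0.649, 0.0808 and 0.837). Unc13b was at 20.5, 16.9 and 17.1 CPM with IR-813 and at 29.0, 28.8 and 14.1 CPM with PSNPs (0.40 ± 0.27), with the same split. It did not pass over all 6 libraries, but without PSNPs replicate 3 it was 0.67 with an adjusted p of 0.000873, and with a length trend removed over all 6 libraries it was 0.65 with 0.0175. Unc13d, Munc13-4 of secretory lysosomes and immune cells, rose from 4.56, 5.17 and 5.23 to 6.80, 6.31 and 8.66 CPM (0.54 ± 0.16, edgeR adjusted p = 0.0352), a call lost without any of the IR-813 replicates or PSNPs replicate 1 (adjusted p = 0.0622 to 0.128) and with scaling by library size alone (0.0588).

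Of the 7 tested syntaxin-binding proteins 1 passed over all 6 libraries. Stxbp5, tomosyn, which competes with VAMPs and restrains fusion, fell from 67.0, 69.2 and 63.3 CPM with IR-813 to 27.6, 26.3 and 15.2 CPM with PSNPs (−1.53 ± 0.22, edgeR adjusted p = 0.00209). Stxbp2 (0.32 ± 0.13) and Stxbp3 (0.05 ± 0.08), SM protein genes of many cell types, did not pass, and Stxbp3 was at −0.02 with scaling by library size alone. Stxbp4 (0.22 ± 0.49) did not pass either, but it passed as higher without PSNPs replicate 3 (0.66, edgeR adjusted p = 0.000282).

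Complexins, which clamp the assembled SNARE complex, split as well. Cplx1 fell from 4.52, 5.12 and 5.36 CPM with IR-813 to 1.29, 1.11 and 2.09 CPM with PSNPs (−1.74 ± 0.24, edgeR adjusted p = 0.00194). Cplx2 was at 15.9, 16.2 and 19.2 CPM with IR-813 and 18.8, 17.5 and 7.82 CPM with PSNPs (−0.22 ± 0.31), and the value was 0.09 without PSNPs replicate 3. None of the 3 genes of SNARE disassembly passed over all 6 libraries. Nsf, the ATPase, was at −0.18 ± 0.16, its ubiquitous adaptor gene Napa at 0.29 ± 0.10 and the neuronal adaptor gene Napb at −0.88 ± 0.44. Napa was 93.1, 91.5 and 96.6 CPM with IR-813 and 109, 104 and 131 CPM with PSNPs, and it passed as higher without PSNPs replicate 3 (0.19, edgeR adjusted p = 0.0133) or without PSNPs replicate 2 (0.36, 0.0471). Napb was 2.37, 2.24 and 1.66 CPM with IR-813 and 1.47, 1.54 and 0.37 CPM with PSNPs, and its value was −0.47 without PSNPs replicate 3.

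Setting each neuronal form against a partner in the same library removes any effect of library scaling. It does not remove a trend with transcript length where the partners differ in length. With a length trend taken out of each library, Vamp1 was at −0.75 in place of −0.81 and Vamp8 at 0.24 in place of 0.69. Snap25 (−3.47 in place of −3.44), Snap23 (0.11 in place of 0.09) and Stx1a (−0.52 in place of −0.51) moved little. The partners Stx4 (0.21 in place of 0.44), Sypl1 (0.07 in place of 0.27) and Napa (0.17 in place of 0.29) also shrank. Going the other way, the partner Unc13d rose more (0.78 in place of 0.54). The neuronal forms Syp (−2.5 in place of −2.25) and Napb (−1.09 in place of −0.88) were lower still. The ratios themselves were not computed with that trend removed. Pairs were laid down from textbook roles, among members chosen with earlier results of these data known, and 8 of the 10 compared are given here. The partners Syt11 and Unc13d belong to the mixed or tissue-restricted group and not to the ubiquitous forms. In each of the 8 the log2 ratio of counts, with 0.5 added to each, was lower in all 3 PSNPs libraries than in all 3 IR-813 libraries. An exact 2-sided permutation test of 3 against 3 cannot go below 0.1, which each pair reached (Benjamini-Hochberg adjusted p = 0.1 over the 10 pairs), so none could pass 0.05. Among all tested genes, 31.4% had all 3 PSNPs libraries below all 3 IR-813 libraries and 30.0% above, 61.4% in all. These shares are of the levels of single genes, and none was computed for ratios of other gene pairs. On the deposited log2 values the groups of Unc13a to Unc13d overlapped.

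The sizes of the ratio changes ranged widely. The Snap25 to Snap23 ratio was −3.26, −3.64 and −3.36 with IR-813 and −7.12, −6.86 and −6.67 with PSNPs, a difference of −3.46, or 11.0 times. The Syp to Sypl1 ratio differed by −2.49 (5.61 times), Syt1 to Syt11 by −1.94, Vamp1 to Vamp8 by −1.47 and Napb to Napa by −1.39. At the other end stood Stx1a to Stx4 at −0.96, Vamp2 to Vamp3 at −0.83 and Unc13a to Unc13d at −0.79. Without PSNPs replicate 3 the difference was −0.64 for Napb to Napa and −0.28 for Unc13a to Unc13d, but −3.57 for Snap25 to Snap23 and −0.81 for Vamp2 to Vamp3.

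**Figure D3:**
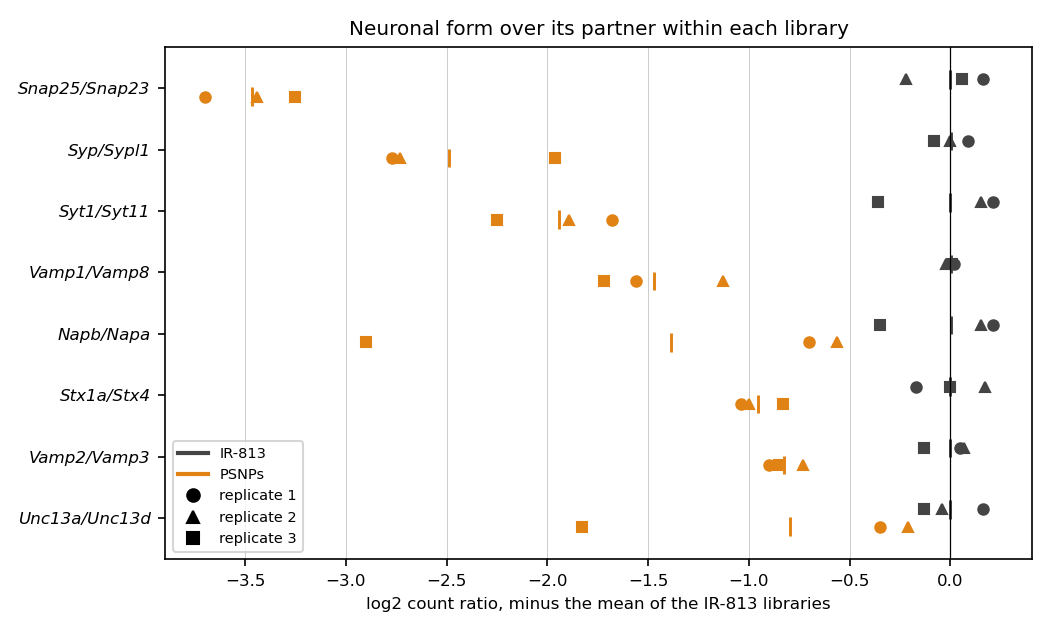
Log2 ratio of counts of a neuronal form to its partner in each library, minus the mean of the 3 IR-813 libraries of that pair (horizontal axis), for 8 pairs; symbols mark the replicates and short lines the means. The PSNPs points lie left of the IR-813 points in all 8 pairs, by 3.46 on average for Snap25/Snap23 and by 0.79 for Unc13a/Unc13d, and PSNPs replicate 3 lies far to the left for Napb/Napa and Unc13a/Unc13d.

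Neuronal forms differed among themselves. Of the 13 tested neuronal forms with at least 10 CPM with IR-813, 8 had a log2 fold change within 0.4 of 0 in either direction, among them Vamp2, Sv2a, Unc13a, Snap91, Syn1, Syt5 and Cplx2. Those outside it included Syt4, Bsn, Vamp1 and Rims2. The level on the deposited log2 scale, which carries a factor per gene as a length scaling would, had a Spearman correlation of 0.19 with the log2 fold change over the 33 tested neuronal forms, which share all libraries. On that scale Vamp2 stood at 6.06 on average with IR-813, beside its ubiquitous relative Vamp3 at 6.91. By contrast Snap25 (1.86) was far under Snap23 (4.60), Syp (3.02) under Sypl1 (6.09) and Stx1a (2.09) under Stx4 (6.12) in level, before any difference between the treatments.

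PSNPs replicate 3 was the lowest of the 6 libraries for 33 of the 67 tested members (49.25%), against 34.5% of all tested genes. It was below 50% of both other PSNPs libraries for 15 members (22.4%), against 7.62% of all tested genes. Among these members were Pclo, Rims1, Rims2, Napb, Syn3, Stxbp4 and Unc13a, named here after their values were seen. All tested genes were split into 4 equal groups by a proxy of transcript length. In these the median log2 ratio of that replicate to the mean of PSNPs replicates 1 and 2 went from 0.33 in the shortest to −0.41 in the longest. The members did not follow it closely, with medians of −0.42, 0.09, −0.08 and −0.77 from the shortest to the longest group. The share of genes called lower went from 11.5% in the shortest to 29.3% in the longest. Neuronal forms made up 12 and ubiquitous forms 1 of the 16 members in the longest group, and 5 and 8 of the 15 in the shortest. With the length trend taken out of each library, 16 neuronal forms were lower and 4 ubiquitous forms higher, and the medians were −0.75 and 0.08. Stxbp4 stood at 22.2, 21.4 and 4.75 CPM with PSNPs against 13.6 to 14.2 CPM with IR-813, and passed as higher without PSNPs replicate 3 (edgeR adjusted p = 0.000282).

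**Figure D4:**
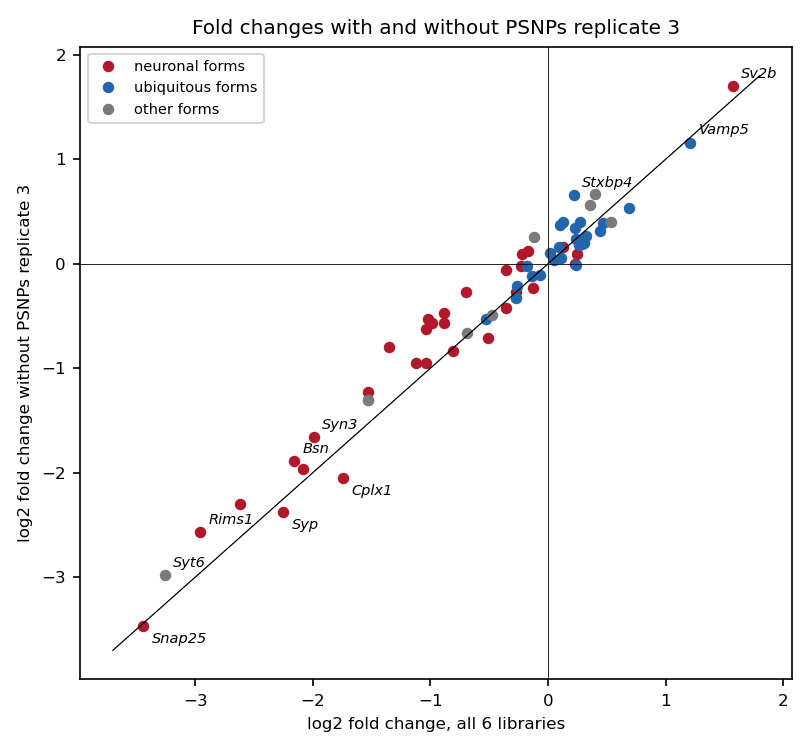
Log2 fold change (PSNPs over IR-813) of 65 of the tested members with all 6 libraries (horizontal axis) and without PSNPs replicate 3 (vertical axis), coloured by form; the diagonal line marks equal values. Snap25 (−3.44 and −3.47) and Sv2b (1.57 and 1.70) stay near the line, while Stxbp4 (0.22 and 0.66) and Rims1 (−2.96 and −2.57) lie above it.

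Genes of the presynaptic terminal that the symbol rule does not take were put in a further list, chosen with earlier results of these data known. The count table held 35 of them and 28 were tested, of which 15 fell, 1 rose and 12 did not pass, with a median of −0.76. These were 53.6% lower and 3.57% higher, against 20.1% and 20.9% of all tested genes. The gene that rose was Rab3b, a vesicle GTPase gene (1.51 ± 0.26). Slc32a1, the vesicular GABA transporter gene, fell from 4.08 ± 0.440 to 0.134 ± 0.0255 CPM (SD, n = 3 each; −4.87 ± 0.25, edgeR adjusted p = 8.88e-05). Nrxn3, a presynaptic adhesion gene, had a log2 fold change of −3.20 ± 0.24 and Apba1, a presynaptic adaptor gene, of −2.13 ± 0.25, and both fell. Of 11 tested dense-core granule genes 27.3% were lower and 18.2% higher, near the shares over all genes. The 3 that fell were the secretogranin gene Scg3 (−1.21 ± 0.09) and the chromogranin genes Chga (−2.73 ± 0.20) and Chgb (−1.07 ± 0.11), and the 2 that rose were the peptide-amidating enzyme gene Pam (0.51 ± 0.08) and Ptprn2 (0.71 ± 0.12), a granule membrane protein gene. Of 24 tested exocyst, tethering and general SNARE genes 2 rose, 1 fell and 21 did not pass, with a median of 0.07. The shares of 8.33% higher and 4.17% lower were below those of all tested genes. Bet1 (0.43 ± 0.11) and Sec22b (0.26 ± 0.08), SNAREs between endoplasmic reticulum and Golgi, were the 2 that rose and the Golgi SNARE gene Gosr1 (−0.53 ± 0.15) the 1 that fell. Bet1 lost its call without IR-813 replicate 1 or 2 (edgeR adjusted p = 0.0755 and 0.0752), Gosr1 without any of the IR-813 replicates (0.0531 to 0.0937), and Sec22b in every fit without a library but that without PSNPs replicate 3 (0.0646 to 0.153).

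The promoters of the members were read for features in common. RefSeq windows of assembly GRCr8, from 250 bases before to 50 bases after the annotated start, were found for 58 of the 74 members. They were searched on both strands for the cyclic AMP response element TGACGTCA, which is its own reverse complement, for the GC box, GGGCGG or, on the other strand, CCGCCC, and for part of the RE1 element bound by the neuronal repressor REST, TTCAGCACC or, on the other strand, GGTGCTGAA. The windows shown are those of the neuronal forms Rims1 and Syp, which fell most among those with a window, of the 3 members with the cyclic AMP response element (Vamp1, Syn1 and Napa), and of Vamp5, the ubiquitous form that rose most. They lie at chr9:32692723-32693022 (minus strand), chrX:17536400-17536699 (minus strand), chr4:159698644-159698943 (plus strand), chrX:3725495-3725794 (plus strand), chr1:85915185-85915484 (plus strand) and chr4:105993198-105993497 (minus strand). Capitals mark the searched motifs, and in Vamp5 a pair of GC boxes overlap.
Rims1: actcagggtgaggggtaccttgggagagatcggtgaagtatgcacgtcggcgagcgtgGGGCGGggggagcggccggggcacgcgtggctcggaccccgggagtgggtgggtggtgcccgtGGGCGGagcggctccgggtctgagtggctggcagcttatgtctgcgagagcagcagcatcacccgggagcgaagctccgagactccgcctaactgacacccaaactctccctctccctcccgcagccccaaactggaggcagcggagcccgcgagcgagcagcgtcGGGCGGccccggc
Syp: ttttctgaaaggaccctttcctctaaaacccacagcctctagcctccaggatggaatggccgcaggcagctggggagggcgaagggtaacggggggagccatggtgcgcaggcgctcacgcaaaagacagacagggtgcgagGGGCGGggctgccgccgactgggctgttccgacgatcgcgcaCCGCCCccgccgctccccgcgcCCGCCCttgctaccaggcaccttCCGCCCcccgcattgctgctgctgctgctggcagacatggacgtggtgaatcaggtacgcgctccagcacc
Vamp1: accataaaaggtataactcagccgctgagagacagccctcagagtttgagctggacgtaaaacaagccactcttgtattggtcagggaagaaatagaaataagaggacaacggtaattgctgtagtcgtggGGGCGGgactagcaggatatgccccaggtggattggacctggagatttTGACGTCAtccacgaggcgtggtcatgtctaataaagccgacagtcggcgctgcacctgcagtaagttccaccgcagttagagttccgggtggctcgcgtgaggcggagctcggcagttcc
Syn1: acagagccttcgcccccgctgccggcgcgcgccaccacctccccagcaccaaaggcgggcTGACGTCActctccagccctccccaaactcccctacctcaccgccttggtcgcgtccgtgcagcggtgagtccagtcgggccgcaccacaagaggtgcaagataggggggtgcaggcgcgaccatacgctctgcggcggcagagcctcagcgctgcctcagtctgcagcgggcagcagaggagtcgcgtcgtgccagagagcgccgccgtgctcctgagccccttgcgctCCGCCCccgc
Napa: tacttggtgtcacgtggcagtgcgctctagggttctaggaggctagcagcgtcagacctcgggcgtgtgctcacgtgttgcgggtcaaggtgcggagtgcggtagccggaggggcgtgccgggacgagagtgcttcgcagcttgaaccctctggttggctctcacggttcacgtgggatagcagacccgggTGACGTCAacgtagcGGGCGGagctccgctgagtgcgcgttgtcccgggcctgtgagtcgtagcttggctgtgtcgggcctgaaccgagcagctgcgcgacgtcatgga
Vamp5: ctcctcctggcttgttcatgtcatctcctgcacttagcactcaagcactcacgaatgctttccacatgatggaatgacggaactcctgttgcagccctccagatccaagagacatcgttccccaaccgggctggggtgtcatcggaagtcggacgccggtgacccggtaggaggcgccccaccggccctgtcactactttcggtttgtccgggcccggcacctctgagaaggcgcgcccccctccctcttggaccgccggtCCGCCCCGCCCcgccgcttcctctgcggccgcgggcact

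The GC box was about as frequent in both forms. It was found in 18 of 26 neuronal windows (69.2%) and 15 of 22 ubiquitous windows (68.2%), against 36.0% of all 27457 genes with a window. The median GC content was 63.5% and 64.0%, against 52.3% for all genes. The cyclic AMP response element was in the windows of Vamp1 and Syn1, which fell, and of Napa, which did not pass, and in 2.00% of all genes. Its first base lay at −71 from the annotated start in Vamp1, −190 in Syn1 and −59 in Napa. The RE1 part was found in Unc13a alone of the members with a window and in 0.404% of all genes. A match is a description of these letters and not a binding site.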

How the data were processed

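RNA-seq counts of 6 libraries labelled primary rat microglia (3 IR-813, 3 PSNPs) were analysed, grouped by title. The authors deposited whole-number read counts per gene symbol and, per library, log2 values of unstated scaling. Per the submitters' processing notes, bcl2fastq and the build mRatBN7.2 were used; the sources used here name no aligner, counter, annotation or strand setting, so reads shared by similar, overlapping or antisense genes are uncertain. Total counts were 19166605 to 22553507.

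Counts were filtered with filterByExpr (11679 genes), scaled by TMM and tested with edgeR 4.0.16 (R 4.3.3), quasi-likelihood, treatment as the only term, Benjamini-Hochberg adjusted p under 0.05. In a test on simulated counts for this comparison (11612 genes), 75.9% of 2-fold changes, 98.2% of 4-fold changes and 0.0876% of unchanged genes were called. Only 87 genes had 2-fold and 111 had 4-fold changes there, whereas 41.0% of genes were called in the data. No simulated library was set apart from its group as PSNPs replicate 3 was, so these rates need not hold for the data. SE is the size of the log2 fold change over the square root of F. The length proxy is the factor per gene between counts and unlogged deposited log2 values (pseudocount 1 removed). It fitted within 0.05 log2 units for at least 98.6% of genes per library. Alternatives were DESeq2 1.42.0, limma 3.58.1 on the deposited log2 values, other scalings and filters, each library left out, a replicate block and a length offset. Values in every library are given for partner pairs, for the 2 smallest p per role and direction, and for called members with a log2 fold change of at least 2 in size; others were named after their values were seen. Members and lists were chosen with earlier results of these data known. Where a fit leaves out a library, it is dropped, not imputed. Results of a few members are not reported here, while counts and medians over groups include them.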

Additional observations from a re-analysis of the deposited data

How the results depend on the processing

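The count of neuronal forms that fell (14) lay between 11 and 19, and that of all members that fell (20) between 15 and 27, when 1 library was left out. The counts that rose depended more on the library: 2 to 12 for ubiquitous forms (5 with all libraries) and 3 to 17 for all members (7 with all libraries), with the highest in each case without PSNPs replicate 3. All calls over the table (4790) lay between 2812 and 7069. The medians lay between −1.15 and −0.57 for neuronal and between 0.13 and 0.21 for ubiquitous forms. On the deposited log2 values, whose pseudocount shrinks low genes, they were −0.35 and 0.11, and for ubiquitous forms 0.11 with the replicate block and 0.08 with the length offset, which was chosen after the data were seen. With scaling by library size alone, 26 members fell and 5 rose, in place of 20 and 7, and the median of all genes was −0.09. The neuronal members relative to the neuron markers (0.23) came to 0.58 without Syt4, when the groups no longer overlapped, and to 1.46 with medians in place of sums, and the cause was not tested.

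No pair ratio changed sign under its 9 alternatives. Of 839 single-gene values under 14 alternatives 773 kept direction and call and 4 changed sign: Unc13a (−0.35 to 0.12 with 1 library left out, positive without PSNPs replicate 3, and 0.05 with the length offset), Cplx2 (−0.43 to 0.09, positive without PSNPs replicate 3) and Stxbp3 (−0.02 with library size only), none of them called. Replicate numbers did not pair the libraries, since deviations of same-numbered libraries correlated at −0.00585, 0.0145 and 0.121, and not every library correlated best with its own number. With the replicate block 13 neuronal forms fell and 4 ubiquitous forms rose, and 4161 genes were called. It ended the calls of Unc13d (adjusted p = 0.0579), Stx6 (0.0892) and Sec22b (0.0833). Members on few counts, such as Rims4, Syt13 and Syn2, are limited by depth.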
